A study of Mus musculus with 18 samples.

Results

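MC3T3-E1 cultures that carried different short hairpin constructs fell into 3 sets of alike libraries at 24h and at 7d, and the genes that separated these sets at both times are described here. MC3T3-E1 is an established mouse preosteoblast line from calvaria. The cells were labelled wild type and stably expressed a lentiviral short hairpin RNA: shScramble, the control, or shRcor2-18 or shRcor2-20, designed against Rcor2, a corepressor of the CoREST family. The question of the series was what silencing Rcor2 does as osteoblasts differentiate. Set A held sample 1 of shScramble and sample 1 of shRcor2-18, set B held sample 2 of shScramble and sample 1 of shRcor2-20, and set C held sample 2 of shRcor2-18 and sample 2 of shRcor2-20. Each set thus had 4 libraries, 2 at 24h and 2 at 7d, and the sets took in 12 of the 18 libraries of the series. All cultures received the same osteogenic medium, in which growth medium was given beta-glycerophosphate (5 mM), dexamethasone (10 nM) and ascorbic acid (50 µg/ml). The labels' protocol describes harvests up to other days, so 24h and 7d are given as the sample titles state them. The labels do not tell whether both samples of a construct and time came from separate cultures or transductions, or what linked the samples of a set.

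The sets were chosen from these counts. Between libraries of the same time and set the chi-square per degree of freedom over genes was 3.03 to 7.07 (6 pairs), and between libraries of the same time and different sets it was 13.8 to 35.5 (24 pairs). Differences between sets are therefore a description with no test, and the word "apart" below stands for a rule, not for a p-value. A set was called apart in a gene when both its libraries lay beyond all 4 libraries of the other sets at 24h and again at 7d, on the same side, with a mean log2 difference of at least 1 each time.

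Only protein-coding genes on stretches of 2 chromosomes were read, since elsewhere in the deposited table row names and reads often do not match. These were Mefv to Cbr3 on chromosome 16 (610 rows) and Ighmbp2 to Gpha2 on chromosome 19 (134 rows). Of the 744 rows, 480 reached a mean of 10 CPM, counts scaled to a common library total, over the 12 libraries and are the genes tested. CPM here are relative to the total on the tested genes after scaling, so they show relative amounts within these stretches. Total counts were 3911277 to 6139315 per library at 24h and 3504808 to 4639679 at 7d, of which the stretches held 11.29% to 12.13%. As a check of the names, 30 of 30 genes of respiration, import, translation and proteasome, which most cells express, had a mean of at least 10 CPM, with a median of 1936 CPM. This check is weak, since 480 of all 744 rows reached the same level. Names inside the stretches are still not secure in each case. Sod1, the cytosolic superoxide dismutase, had 54.3 CPM, Ctsf, a cathepsin, 0 CPM, Trp63, an epithelial transcription factor, 3188 CPM, and Btla, a lymphocyte receptor that is among the genes described below, 219 CPM. The genes that define osteoblasts lie outside the stretches, so the labelled cell type could not be checked here. The row of Rcor2 itself, also outside, held 201 to 242 CPM of all counts in each of the 12 libraries. As a row outside the stretches it may not hold the reads of Rcor2. The range is not split by construct, and silencing was not tested.

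Cultured preosteoblasts pass from growth to matrix production and then to mineral deposition once ascorbic acid and a phosphate source are given. Lentiviral constructs insert into the genome, so that cells and their daughters keep expressing the hairpin. The genes described below include secreted proteins that act on the matrix, receptors by which cells adhere or signal to each other, and regulators of transcription and of kinase signalling.

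In all, 10 of the 480 genes were set apart (2.08%). Set A was higher in Npas4, Fbxo40 and P3h2 (0.625% of the genes tested) and lower in Apod, Alcam and Hunk (0.625%). Set B was higher in Rtn4r (0.208%) and lower in 0 genes (0%). Set C was higher in Hunk (0.208%) and lower in Fbxo40, Btla, Cd200 and Cst6 (0.833%). Hunk and Fbxo40 counted for both set A and set C. The proteins include surface receptors (Alcam, Btla, Cd200 and Rtn4r) and secreted or secretory-pathway proteins (Apod, Cst6 and P3h2).

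**Figure D1:**
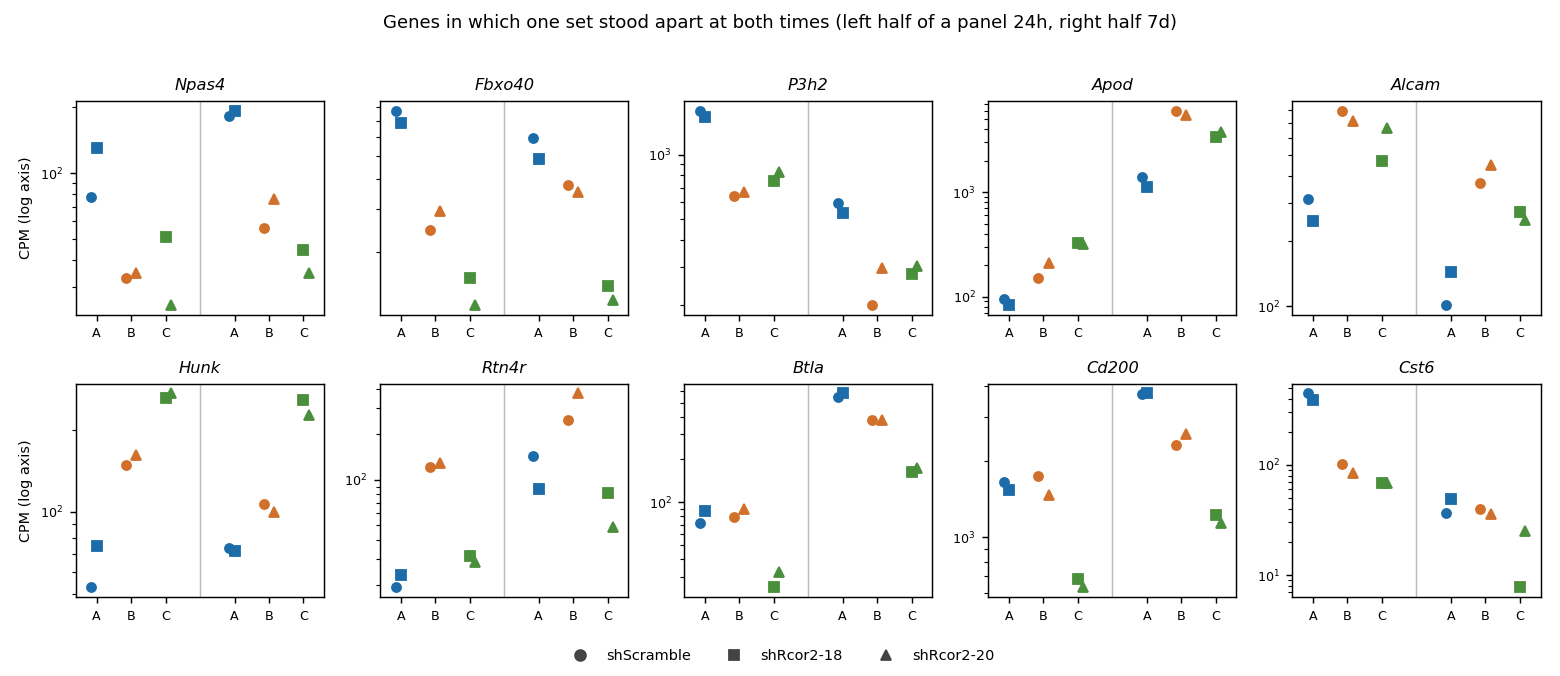
Level of the 10 genes set apart in each of the 12 libraries, in CPM on a log axis with a range of its own in each panel; the left side of a panel is 24h, the right side 7d, colours are sets and marker shapes are constructs. Fbxo40 and Hunk run in opposite order over the sets, and libraries of different constructs lie next to each other within a set.

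Without a minimum on the difference, 158 of the 480 genes (32.9%) had a set whose libraries lay beyond all others on the same side at both times. They were 40 higher (8.33%) and 42 lower (8.75%) in set A, 23 (4.79%) and 28 (5.83%) in set B, and 30 (6.25%) and 22 (4.58%) in set C. Small differences thus made up most of the separation. With a minimum of 0.5 on the log2 scale there were 39 genes (8.12%), with 11 higher (2.29%) and 8 lower (1.67%) in set A, 7 (1.46%) and 8 (1.67%) in set B, and 8 (1.67%) and 6 (1.25%) in set C. At a single time more genes passed the minimum of 1, with 22 (4.58%) at 24h and 25 (5.21%) at 7d. By set these were 15 (3.12%) and 15 (3.12%) for set A, 4 (0.833%) and 6 (1.25%) for set B, and 9 (1.88%) and 15 (3.12%) for set C, at 24h and 7d in turn. In 15 genes (3.12%) a set lay beyond the others without overlap at both times but on opposite sides. Of 6255 rows outside the stretches with enough counts, whose names are not used, 87 (1.39%) were set apart by the same rule. Their filter of 10 CPM was relative to the total of all rows, not to that of the stretches. It thus asked for more reads per gene, and this share is not on the same footing as those above.

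**Figure D2:**
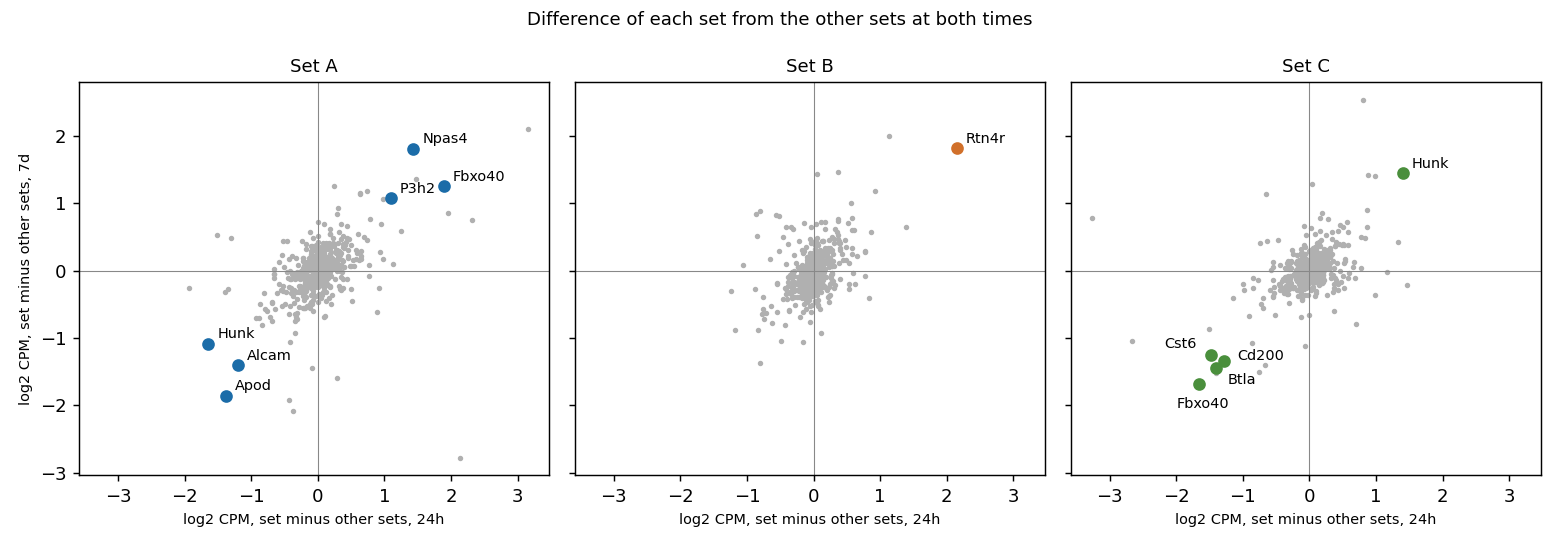
Log2 difference of each set from the mean of the other sets for the 480 genes, at 24h (horizontal axis) and at 7d (vertical axis); coloured points are the genes set apart at both times. Set B has 1 coloured point, Rtn4r, at 2.15 and 1.82.

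Fbxo40, a muscle ubiquitin ligase adaptor of the F-box family, separated all 3 sets. At 24h it had 767 and 683 CPM in set A (shScramble, then shRcor2-18), 246 and 297 CPM in set B (shScramble, then shRcor2-20) and 156 and 121 CPM in set C (shRcor2-18, then shRcor2-20). At 7d the values were 593 and 484, 379 and 353, and 145 and 126 CPM in the same order, which is kept below. The order A above B above C held at both times with no overlap. The log2 difference from the other sets was 1.89 at 24h and 1.25 at 7d for set A, and -1.66 and -1.68 for set C, beside an SD of 0.17 among libraries of a set and time. The mean over all sets barely differed between the times, as the level fell in set A and rose in set B. The sets accounted for 94.4% of its spread over the 12 libraries, the largest share of the 10 genes.

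Hunk, a kinase related to the AMP-activated protein kinase, ran the other way. At 24h it had 52.7 and 74.8 CPM in set A, 149 and 163 in set B, and 264 and 274 in set C. At 7d it had 73.9 and 71.9, 107 and 99.7, and 259 and 229 CPM. Set C was thus highest and set A lowest at both times. Set C differed from the others by 1.40 and 1.45 on the log2 scale and set A by -1.64 and -1.08 (SD within set and time 0.15), and 92.9% of the spread lay between sets.

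In Npas4, an activity-dependent transcription factor, set A stood alone. Its libraries had 77.7 and 130.3 CPM at 24h and 182 and 192 CPM at 7d. Set B had 33.1 and 35.0 CPM at 24h and 55.9 and 75.8 at 7d, and set C 50.8 and 24.9 at 24h and 44.4 and 34.9 at 7d. Sets B and C overlapped at 24h. The difference of set A was 1.43 and 1.81 on the log2 scale (SD 0.37).

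P3h2, a collagen prolyl 3-hydroxylase, was higher in set A, and lower at 7d than at 24h in each set. Set A had 1593 and 1497 CPM at 24h and 598 and 535 at 7d. Set B had 643 and 667, then 200.2 and 297 CPM, and set C 758 and 828, then 278 and 302 CPM. Sets B and C overlapped at 7d, and the gene lay just inside the minimum, with differences for set A of 1.10 and 1.08 (SD 0.18). It dropped under the minimum in 2 cases: without sample 1 of shScramble at 7d the smaller difference was 0.997, and without sample 2 of shScramble at 7d it was 0.943. P3h2 overlaps an antisense gene, Gm4524, and the treatment of strand in counting is not given in the sources used here, so the reads of the pair cannot be told apart.

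Apod, the lipid-carrying apolipoprotein D, combined the widest change over time with a set difference. Set A had 95.7 and 83.3 CPM at 24h and 1392 and 1127 at 7d. Set B had 150.4 and 208 CPM at 24h and 5997 and 5509 at 7d, and set C 324 and 319.5 at 24h and 3419 and 3765 at 7d. Set A was lowest both times, while B and C were in opposite order at 24h and 7d. The mean at 7d exceeded that at 24h by 4.07 on the log2 scale, and set A differed from the others by -1.38 and -1.86 (SD 0.18). The sets took 12.02% and time 85.4% of the spread.

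Alcam, an adhesion molecule of the immunoglobulin family found on mesenchymal cells, was lowest in set A and highest in set B. At 24h the libraries had 314 and 248 CPM in set A, 795 and 715 in set B, and 467 and 664 in set C. At 7d they had 102 and 144, 372 and 449, and 272 and 249.95 CPM. The order B above C above A held without overlap at both times. Set A differed by -1.21 and -1.41 on the log2 scale (SD 0.24), and set B by 0.93 and 1.18, just outside the minimum.

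Rtn4r, the Nogo receptor, was the gene of set B. At 24h set B had 122 and 129.7 CPM, set A 19.4 and 23.5 and set C 31.2 and 28.7. At 7d set B had 249 and 373 CPM, set A 143 and 86.7 and set C 81.2 and 48.4. Each library of set B lay above each library of the others at its time. The values of sets A and C at 24h rested on few counts. The log2 difference was 2.15 and 1.82 (SD 0.34), the widest of the 10 genes at 24h, and the mean at 7d exceeded that at 24h by 1.47.

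Btla and Cd200, next to each other in protein-coding gene order on chromosome 16, were both lowest in set C. The name of the Btla row is among those not secure. Btla encodes an inhibitory receptor of lymphocytes and Cd200 a surface glycoprotein that restrains myeloid cells. Btla had 72.1 and 87.6 CPM in set A, 79.3 and 90.6 in set B, and 25.4 and 32.5 in set C at 24h. At 7d it had 552 and 581, 379 and 381, and 162 and 174 CPM. Cd200 had 1657 and 1538 CPM, 1744 and 1476, and 683 and 631 at 24h, and 3722 and 3731, 2316 and 2567, and 1227 and 1141 at 7d. In both genes sets A and B overlapped at 24h, and set A was above set B at 7d. Set C differed by -1.40 and -1.44 in Btla (SD 0.14) and by -1.28 and -1.35 in Cd200 (SD 0.10). Of the 11 blood and immune cell markers on the stretches, 5 reached 10 CPM. Over both times the 11 summed to 1902 to 2639 CPM in set A. The sums were 2024 to 2775 CPM in set B and 2001 to 2507 in set C. Cd80 alone, with a mean of 1628 CPM, made up most of this sum. Cd86, Trat1 and Cd200r1 were at 0 counts in the 12 libraries. The part of immune cells in the Btla difference was not tested.

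The promoter windows of this pair, from RefSeq on GRCm38.p6, are shown because the neighbours moved together and each window holds 1 copy of the TEAD site CATTCC. Both copies are on the strand opposite to the gene, so the capitals read as the reverse complement.
Btla: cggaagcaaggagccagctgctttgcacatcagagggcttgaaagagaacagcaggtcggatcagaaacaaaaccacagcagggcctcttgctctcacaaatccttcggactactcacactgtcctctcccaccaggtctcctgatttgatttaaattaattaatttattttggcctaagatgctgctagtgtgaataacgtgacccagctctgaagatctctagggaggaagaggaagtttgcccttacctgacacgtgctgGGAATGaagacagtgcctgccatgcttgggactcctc
Cd200: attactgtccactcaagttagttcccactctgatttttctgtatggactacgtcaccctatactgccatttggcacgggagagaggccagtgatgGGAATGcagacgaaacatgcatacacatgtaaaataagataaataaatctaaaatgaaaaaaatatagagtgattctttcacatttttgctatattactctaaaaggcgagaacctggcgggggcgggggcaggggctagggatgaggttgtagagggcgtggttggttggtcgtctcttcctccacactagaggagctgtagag
The windows run from 250 bases before to 50 after the annotated start, at chr16:45224087-45224386 on the plus strand for Btla and chr16:45409004-45409303 on the minus strand for Cd200. Both also hold the Runx site TGNGGT, left in lower case. The sites were among 7 motifs searched on both strands. The TEAD site occurs in 14.7% of the 32851 promoter windows of this length and the Runx site in 45.8%. Windows were found for 8 of the 10 genes. The E-box CACCTG of Snail factors was in windows of Alcam, Fbxo40 and Rtn4r, whose orders over the sets differ. Fbxo40 also has a window at another start, which holds a Runx site and lacks this E-box. The window of Alcam, at chr16:52453032-52453331 on the minus strand, is shown with that E-box in capitals.
Alcam: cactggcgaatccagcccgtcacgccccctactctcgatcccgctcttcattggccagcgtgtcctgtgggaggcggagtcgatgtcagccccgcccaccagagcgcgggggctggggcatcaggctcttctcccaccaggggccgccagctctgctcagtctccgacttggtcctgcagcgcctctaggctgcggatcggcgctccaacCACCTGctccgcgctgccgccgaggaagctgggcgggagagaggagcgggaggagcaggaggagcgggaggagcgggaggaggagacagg
That E-box is in 20.2% of all windows. A match is a description of the letters only.

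Cst6, the secreted protease inhibitor cystatin E/M, was lowest in set C. Set A had 445 and 387 CPM at 24h and 36.9 and 48.6 at 7d. Set B had 102 and 84.4, then 39.6 and 35.9 CPM, and set C 68.3 and 68.9, then 7.73 and 25.2 CPM. At 24h set A lay far above both others, which at 7d it no longer did, and sets A and B overlapped there. Set C differed by -1.47 and -1.26 (SD 0.41), and the value at 7d rested on sample 2 of shRcor2-18, without which the smaller difference was -0.59.

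Igf2bp2, an RNA-binding protein that targets growth factor messages, differed by 0.99 and 1.06 in set A, just outside. It had 393 and 438 CPM in set A, 304 and 369 in set B and 150.4 and 109 in set C at 24h, and 356 and 425, 214 and 217, and 147 and 169 at 7d. Its order A above B above C had no overlap at either time. Map6d1 in set C was just outside at 0.99 and 1.40, but at 2.06 to 27.1 CPM its libraries varied widely (SD 0.67). It also overlaps an antisense gene, Gm49566.

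All 3 sets could be ranked without overlap, in the same order at both times, in 27 genes (5.62%). The order C above B above A had 7 genes, App, Boc, Hunk, Nrip1, Pcx, Snai2 and Yeats2. B above C above A had 6, Alcam, Ccdc80, Eif4g1, Fetub, Pdia5 and Usp25. A above C above B had 5, Cbr1, Cdk2ap2, Lztr1, Rin1 and Usf3. The orders A above B above C and C above A above B had 4 each, and B above A above C had 1, Hspa13. No order held most of the ranked genes. In pairs of sets, without overlap and with a difference of at least 1 at both times, A exceeded B in 2 genes (0.417%) and fell below it in 2 (0.417%), B exceeded C in 3 (0.625%) and fell below it in 1 (0.208%), and A exceeded C in 7 (1.46%) and fell below it in 3 (0.625%).

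In a split of the spread of each gene over the 12 libraries, the sets took a median of 32.2%, time 17.8%, a change of the sets with time 11.6% and differences within a set and time 16.3%. The sets were chosen from these libraries, so nothing is read from the size of their share. They took over 50% in 130 genes, time in 99, the change of sets with time in 21 and the remainder in 55. Time outweighed the sets in P3h2, Apod, Btla and Cst6.

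Gene lists by function are given by their counts of genes with no overlap at both times, without a minimum on the difference, beside the same for all tested genes. The lists were chosen with earlier results of these data known, so a share above that of all genes is a description with no test. Over all genes, 8.33% were higher and 8.75% lower in set A, 4.79% and 5.83% in set B, and 6.25% and 4.58% in set C. Of 21 genes of DNA replication and repair, 2 were higher and 5 lower in set A (all genes 8.33% and 8.75%), 0 and 1 in set B, and 0 and 0 in set C. The median in set A was -0.25 on the log2 scale against 0.00 over all genes. Mcm4, a subunit of the replicative helicase, had 2176 and 1918 CPM in set A, 3519 and 3768 in set B and 3812 and 4081 in set C at 24h. At 7d it had 1558 and 1581, 2666 and 2920, and 2375 and 2362 CPM, so set A was lowest both times. Cip2a, an inhibitor of the phosphatase PP2A, differed by -0.68 and -0.46 in set A, and Mus81, a nuclease subunit that cuts branched DNA, by 0.37 and 0.51.

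The interferon list had 9 genes tested, of which 4 were higher and 0 lower in set B (all genes 4.79% and 5.83%), with a median of 0.18 against -0.02 over all genes. Rtp4, an interferon-induced chaperone of receptors, had 439.7 and 500.4 CPM in set B, 186 and 194 in set A and 160.1 and 168 in set C at 24h. At 7d it had 214 and 166, 141 and 82.4, and 122 and 143 CPM in the same order. Parp14, an ADP-ribosyltransferase, had 499 and 636 CPM in set B, 297 and 357 in set A and 303 and 281 in set C at 24h, and 452 and 491, 282 and 254, and 346 and 395 at 7d. The other two were Dtx3l, a ubiquitin ligase (0.37 and 0.41 in set B), and its partner Parp9 (0.39 and 0.31). Dtx3l and Parp9 overlap each other on opposite strands, as do Rtp4 and Masp1, so their reads may be shared. The receptor subunits of the list (Ifnar1, Ifnar2, Ifngr2 and Il10rb) and Socs1 were not among the 4.

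Of 11 adhesion and junction genes, 0 were higher and 4 lower in set A (all genes 8.33% and 8.75%), with a median of -0.29. Besides Alcam these included Arvcf, a catenin (-0.37 and -0.38), and Nectin3, an immunoglobulin-like adhesion molecule (-0.31 and -0.42). Among 11 actin and contractile genes, 4 were higher and 2 lower in set A (all genes 8.33% and 8.75%), 0 and 0 in set B, and 0 and 2 in set C (all genes 6.25% and 4.58%). Srl, a calcium-binding protein of the sarcoplasmic reticulum, differed by -0.77 and -0.60, against Fbxo40 in the opposite direction, and Ssh3, a cofilin phosphatase, by 0.44 and 0.48. Of 5 muscle markers 4 reached 10 CPM. Their sum, of which Actn3 made up the most and Fbxo40 and Srl a part, was 1714 to 1978 CPM in set A, 1030 to 1833 in set B and 1228 to 1852 in set C over both times. The part of muscle-like cells in the Fbxo40 difference was not tested.

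Of 21 transcription factors and cofactors, 2 were higher and 3 lower in set A (all genes 8.33% and 8.75%), 0 and 0 in set B, and 3 and 3 in set C (all genes 6.25% and 4.58%). The set A share is near that of all genes. Snai2, the mesenchymal repressor Slug, had 914 and 844 CPM in set A, 1265 and 1258 in set B and 1498 and 1668 in set C at 24h, and 736 and 774, 1222 and 1089, and 1353 and 1424 at 7d. Its 3 sets did not overlap, and libraries of a set and time differed by an SD of 0.08. Bcl6, a zinc finger repressor, differed by 0.70 and 0.50 in set A.

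Of 21 matrix and secreted proteins, 3 were higher and 4 lower in set A (all genes 8.33% and 8.75%), 2 and 1 in set B (4.79% and 5.83%), and 2 and 2 in set C (6.25% and 4.58%). Among 12 genes of Notch, Wnt, BMP and TGF-beta signalling 1 was higher and 1 lower in set A, 0 and 0 in set B, and 2 and 2 in set C, beside the same shares of all genes. Fstl1, a secreted follistatin-like glycoprotein of both lists, had 11928 and 12010 CPM in set A, 10366 and 10830 in set B and 15440 and 16510 in set C at 24h, and 13600 and 13535, 16666 and 16776, and 23489 and 23608 at 7d. Set C was highest at both times, and A and B were in opposite order at the 2 times. Boc, a Hedgehog coreceptor, differed by -0.69 and -0.49 in set A.

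Genes of the endoplasmic reticulum and glycosylation (11 tested) had 1 higher and 1 lower in set A (all genes 8.33% and 8.75%), 2 and 0 in set B (4.79% and 5.83%), and 1 and 1 in set C (6.25% and 4.58%), so set A and set C were near the shares of all genes. Hspa13, a chaperone of the Hsp70 family, differed by -0.86 and -1.08 in set C and by 0.57 and 0.78 in set B. Pdia5, a disulfide isomerase, differed by 0.60 and 0.61 in set B. St3gal6, a sialyltransferase, differed by 0.88 and 1.42 in set C.

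Of 7 axon guidance receptors 3 were tested, Rtn4r, Robo2 and Ephb3, with medians of -0.85 in set A, 0.33 in set B and 0.05 in set C. The list had 1 higher gene in set B, Rtn4r (all genes 4.79%), 1 higher in set C, Robo2 (6.25%), and 0 lower in each set. Robo2, a receptor for Slit ligands, differed by 0.81 and 2.53 in set C, with 193 and 245 CPM at 24h and 1610 and 1566 at 7d. With 3 genes these medians rest on single members.

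The last 6 lists stand beside the same shares of all genes, 8.33% and 8.75% in set A, 4.79% and 5.83% in set B, and 6.25% and 4.58% in set C. Of 20 genes of mitochondrial respiration and import, set A had 0 higher and 1 lower, set B 1 and 0, and set C 1 and 1. Translation and proteasome genes (10 tested) had 0 and 1, 1 and 1, and 1 and 0 in the same order. Lysosome and endosome genes (8 tested) had 2 and 1, 0 and 0, and 0 and 1. Of 9 iron, heme and oxidative stress genes 0 were higher and 2 lower in set A, among them Tfrc, the transferrin receptor, at -0.71 and -0.69. Of 10 lipid genes 2 were higher and 1 lower in set A and 1 and 1 in set B. Of 15 growth and kinase signalling genes 3 were higher and 1 lower in set A, 0 and 2 in set B, and 1 and 1 in set C, with Hunk, Igf2bp2 and Rin1 as the members of largest kept difference. Medians of these 6 lists lay between -0.10 and 0.07.

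**Figure D3:**
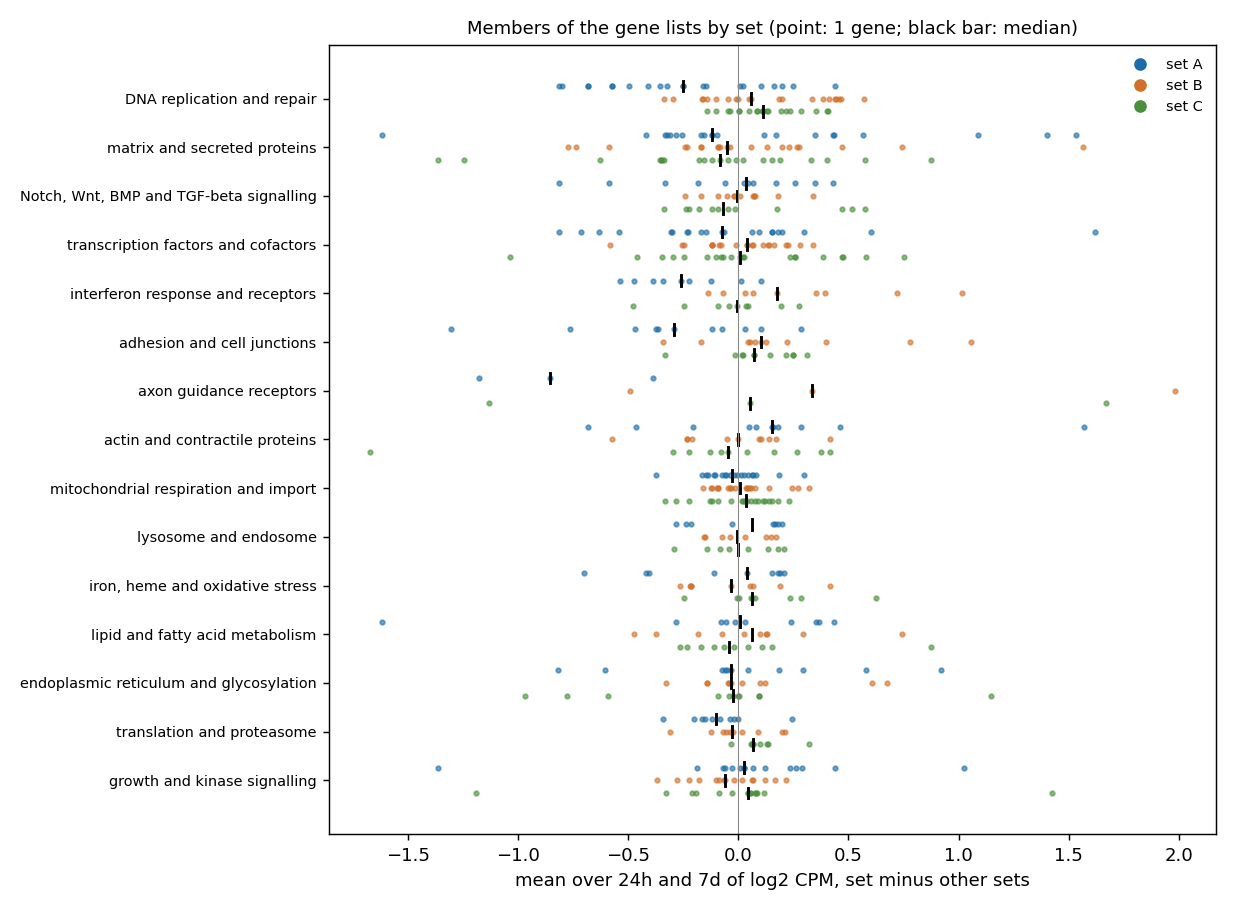
Mean log2 difference over 24h and 7d of each tested list member (points) from the other sets, with 1 line of points per set and the list median as a black bar. The bar of set A lies at -0.25 for DNA replication and repair and at -0.29 for adhesion and cell junctions, that of set B at 0.18 for the interferon list, and those of the axon guidance list, with 3 genes, at -0.85, 0.33 and 0.05 for sets A, B and C.

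Single markers of other cell types differed between sets, as given above for Fbxo40, Srl and Btla. The ranges of the summed lists overlapped between sets, except for sets A and B in the liver list. These ranges span both times, so a change over time can make them overlap, and they do not compare the sets within a time. Of 5 liver markers 1 reached 10 CPM, Fetub, a secreted fetuin, and the sum was 45.9 to 174 CPM in set A, 206 to 288 in set B and 165 to 216 in set C. The other defining liver genes were near or at 0, with Ahsg at 0.34 CPM, Kng1 at 1.96 and Hrg and Nr1i2 at 0. Neural markers (1 of 8 at 10 CPM) summed to 93.7 to 166 CPM in set A, 132 to 194 in set B and 137 to 180.5 in set C. Syt12 alone, with a mean of 134 CPM, made up most of this sum. In set A it changed sides, with log2 differences of -0.54 at 24h and 0.24 at 7d. Epithelial markers (3 of 7) summed to 351 to 465, 357 to 457 and 424 to 458 CPM in that order, and the adipocyte marker Adipoq reached at most 5.73 CPM.

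The 6 libraries of 0h were not used to choose the sets, and carry the same constructs and sample numbers. They were compared only within a sample number, because the 3 sample 1 libraries stood apart, with 19.23% to 19.77% of their counts on the stretches against 11.71% to 12.47% in sample 2. Within sample 1, the libraries of set A are shScramble and shRcor2-18 and that of set B is shRcor2-20. Within sample 2, that of set B is shScramble and those of set C are the hairpins. A set difference at 0h and a construct difference therefore cannot be told apart. An order counted as kept when the 0h libraries of both sets lay in it without overlap.

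The order of sets A and B in sample 1 at 0h was that of the later times in 4 of 4 genes with a difference of at least 1, and in 123 of 161 genes (76.4%) with no overlap and a smaller difference. Among the other tested genes, taken by their mean difference over 24h and 7d, which need not agree in sign, it was so in 153 of 315 (48.6%). Alcam had 486 and 440 CPM in set A against 1226 in set B at 0h, and Npas4 164 and 174 against 76.6 CPM. P3h2 had 1454 and 1434 against 983 CPM, and Rtn4r 40.5 and 35.8 against 75.7 CPM. All 4 genes thus had the later order at 0h. Rtp4 and Parp14, higher in set B later, had 137 and 123 against 377 CPM and 401 and 431 against 692 CPM.

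The order of sets B and C in sample 2 was kept in 4 of 4 genes with a difference of at least 1 between these sets. It was kept in 93 of 145 (64.1%) with no overlap and a smaller difference, and in 160 of 331 (48.3%) of the others. The 4 genes were less alike here. Map6d1, which was not set apart by the rule, differed by -1.29 on the log2 scale at 0h and Btla by 0.64. Rtn4r differed by 0.51, against 1.94 and 2.21 at the later times. Cd200 had 795 CPM in set B and 793 and 780 in set C, a difference of 0.02 at 0h against 1.28 at 24h and 1.04 at 7d. The set difference of Cd200 was thus not seen at 0h in these libraries. Parp14 likewise had 504 CPM in set B against 537 and 462 in set C. Rtp4, in contrast, had 319 CPM in set B against 182 and 148 in set C, the later order. Hunk, later ranked C above B above A, had 195 CPM in set B, between 182 and 230 in set C. Its order of B and C was thus not kept at 0h. Fbxo40 had the later order, with 83.7 CPM in set B against 53.0 and 61.9 in set C. So did Cst6, with 333 CPM against 119 and 139. Apod had no single later order of B and C to compare.

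**Figure D4:**
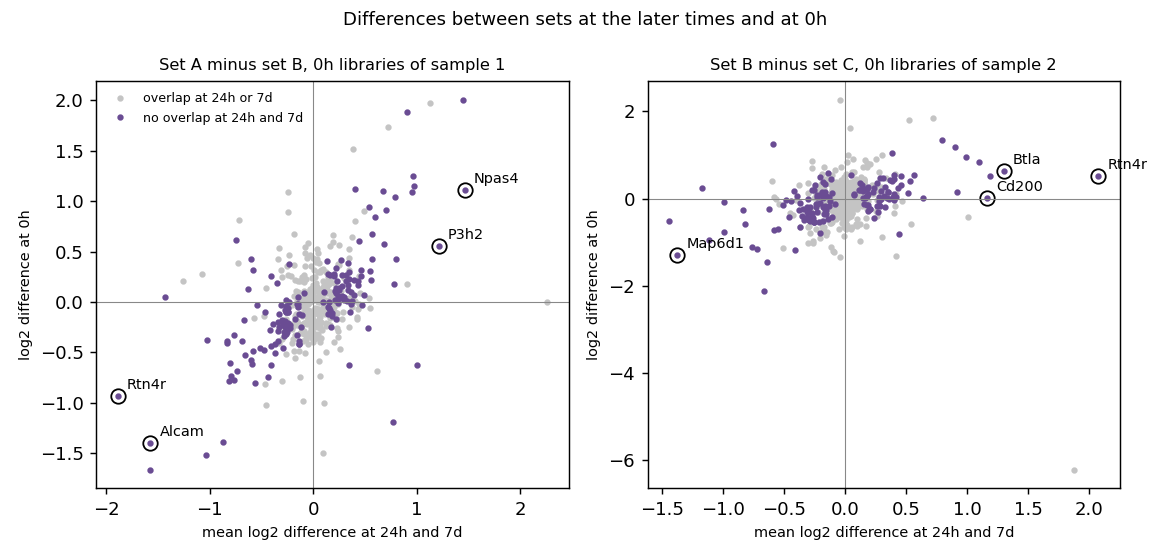
Difference of set A from set B in sample 1 (left) and of set B from set C in sample 2 (right), in log2 CPM, for each tested gene, with the mean of 24h and 7d on the horizontal axis and 0h on the vertical axis; circles are genes with a difference of at least 1. On the left the 4 circles lie in the lower left and upper right quadrants, and on the right Cd200 lies at 0.02 at 0h.

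Chromosome 19 genes as a group followed the sets at 7d. The median log2 level of the 116 tested genes of chromosome 19, each against its mean over the 12 libraries, less that of the 364 genes of chromosome 16, was 0.127 and 0.0952 in set A, -0.275 and -0.177 in set B and -0.0046 and -0.0947 in set C at 7d. At 24h the values were 0.123 and 0.0885, 0.0488 and -0.0028, and 0.0713 and 0.0337. Set A was above the others at both times, and the gap between A and B was wider at 7d. Genes of chromosome 19 had more G and C (median 56.16%) than those of chromosome 16 (48.31%). At 7d the median difference of set B on chromosome 19 was -0.22, -0.21 and -0.21 among genes of low, middle and high GC content (5, 21 and 90 genes). It was 0.07, 0.02 and -0.04 on chromosome 16 (155, 139 and 70 genes). For set A on chromosome 19 they were 0.19, 0.19 and 0.18 at 7d, and for set C 0.05, 0.03 and 0.00. At 24h the set A values were 0.08, -0.04 and 0.03. Both measures were chosen after the values were seen.

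**Figure D5:**
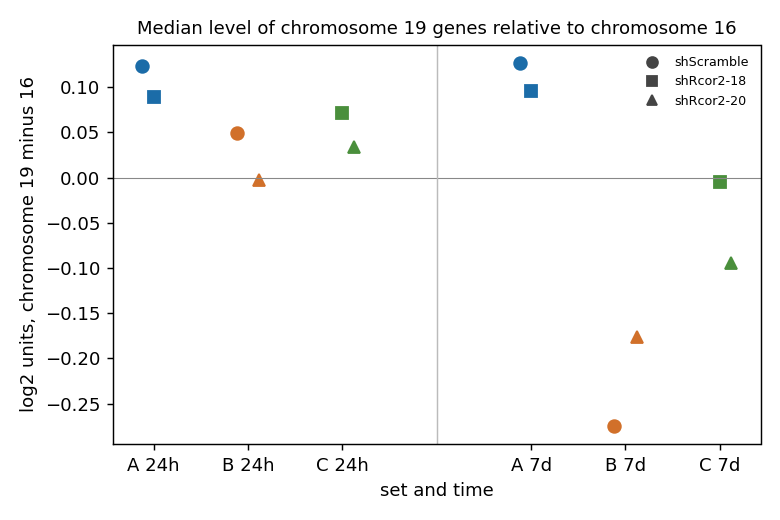
Median log2 level of the tested chromosome 19 genes less that of the chromosome 16 genes in each of the 12 libraries, by set and time; marker shapes are constructs. At 7d set A lies at 0.127 and 0.0952 and set B at -0.275 and -0.177.

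The hairpins could be compared with shScramble inside set A (shRcor2-18) and set B (shRcor2-20), while set C held both hairpins and no shScramble. Of 477 genes tested with edgeR's quasi-likelihood test, with a block for each set and time and 4 residual degrees of freedom, 0 were higher and 0 lower with the hairpins (0% at an adjusted p under 0.05). The lowest Benjamini-Hochberg adjusted p was 0.753 and 11 genes had an unadjusted p under 0.05. DESeq2 with the same blocks gave 0 genes and 6 at an unadjusted p under 0.05. The median size of the fitted difference was 0.049 on the log2 scale. The sets were chosen for small differences inside them, which favours small values here, and a p above the threshold does not show that the constructs act alike. With sample 1 of shScramble or of shRcor2-18 at 24h left out, Serpind1 was lower. With sample 2 of shScramble or sample 1 of shRcor2-20 at 7d left out, Gm28539 was higher. In the full fit their log2 differences were -1.95 (standard error 2.92) and 3.51 (standard error 4.42). Serpind1 overlaps Pi4ka on the opposite strand and Gm28539 overlaps Hira on the same strand, so their reads may be shared.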

How the data were processed

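RNA of 18 libraries was sequenced in reads of 100 bp. Per the submitters' processing notes, the tools were FastQC, TopHat2 2.0.9, DESeq and DESeq2, and the build was mm9. The deposited values are raw counts per gene in a single table for all libraries. How reads were counted, on which annotation and with which strand setting is not given in the sources used here. Gene identifiers were joined to GENCODE vM21 for type and gene order only. The table had 0 other columns of per-sample values.

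Counts of the stretches were scaled by TMM in edgeR 4.0.16 (R 4.3.3) and turned into log2 CPM with a prior count of 2, so differences of low genes are understated. Genes had a mean of at least 10 CPM over the 12 libraries. The hairpin test used glmQLFit and glmQLFTest with Benjamini-Hochberg adjustment at 0.05, and DESeq2 1.42.0 as an alternative. Its p-values measure only the spread between samples, which may be technical. Other alternatives were scaling, prior count, filter, minimum difference and leaving out each library.

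Named genes were, per set and direction, up to 6 genes set apart with the largest difference kept at both times, the genes nearest the minimum, and up to 3 per list. Sets, lists and motifs were chosen with earlier results of these data known. The main lists hold 15 themes. The labels do not say that a sample number marks a shared culture, and the numbers were not used as a block in the main fit.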

Additional observations from a re-analysis of the deposited data

Results flagged for a closer look

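Pla1a, a secreted phospholipase specific for phosphatidylserine, changed sides in set B, with both libraries below all others at 24h and above all others at 7d. Its log2 difference from the other sets was -0.57 at 24h and 0.83 at 7d. At 24h the libraries of set B had 94.2 and 107 CPM, against 122 to 195 CPM in the other sets. At 7d they had 233 and 205 CPM, against 99.3 to 161 CPM. The difference between the times was not tested. In all, 15 of the 480 genes (3.12%) had a set that changed sides without overlap, and Pla1a was the one with at least 0.5 each way.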

How the results depend on the processing

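The count of 10 genes set apart stayed at 10 with RLE size factors, with total counts of the tested genes or of all rows, and with a filter at 50 CPM. It was 13 with a prior count of 0.5 and 11 without a filter, with the same 10 genes among them. A minimum of 0.5 gave 39 genes and of 1.5 gave 2. Leaving out each library gave 9 to 13 genes, of which 9 or 10 were shared with the full count. Over 16 settings, 49 values of named genes gave 784 recomputed values, of which 745 moved by less than the spread within a set. The other 39 were counted as moved. Among the values by which genes were set apart, 0 changed sign. In the other named values a changed sign was not counted separately and would be among the 39. When sample 2 of shRcor2-20 was left out at 7d, the set A differences of Fbxo40 and Hunk came under the minimum, at 0.98 and -0.91. Hunk was also at -0.85 when sample 2 of shRcor2-18 was left out at that time.

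For the hairpins within sets, leaving out each library gave 0 to 1 genes. Over 480 genes, the difference of sample 1 from sample 2 correlated between constructs from -0.06 to 0.35 (6 pairs of constructs and times). All were positive but shScramble with shRcor2-20 at 24h. The difference is A minus B for shScramble, A minus C for shRcor2-18 and B minus C for shRcor2-20. These correlations therefore depend on how the sets were chosen and cannot show whether the numbers pair the samples. A replicate block on sample number within each time in place of the sets gave 0 genes, with 30 at an unadjusted p under 0.05 and a lowest edgeR adjusted p of 0.0619. With RLE size factors, without the filter, with time alone as a block, and over all 11724 rows the count was 0. Without TMM scaling at 0h the order was kept in 130 genes for A and B, against 127, and in 102 for B and C, against 97. Depth limits the low genes: Map6d1, Cst6, Rtn4r, Npas4 and Btla rested on few counts in some libraries.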

Other observations

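Ppp1r2, which encodes an inhibitor of protein phosphatase 1, was singled out after its values were seen. It was lowest in set B, with 922 and 824 CPM against 1749 to 2189 CPM at 24h, and 1241 and 993 against 1909 to 2339 CPM at 7d. Hcls1, a blood cell adaptor of the cortactin family, was higher in set A than in set C by 1.92 and 1.91 on the log2 scale, at 3.86 to 53.4 CPM over the 12 libraries.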
